A study of Mus musculus with 16 samples.

Results

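The RNA levels of 8 genes of sodium channels and their intracellular partners were examined in sorted mouse cardiomyocytes. They were the sodium channel genes Scn4a, Scn2b, Scn3b and Scn4b and the intracellular fibroblast growth factor genes Fgf11, Fgf12, Fgf13 and Fgf14. All probes whose gene name on the microarray is 1 of these symbols were taken, which gave 12 of 55681 probes and 8 of 27372 gene names. Hearts of wild-type CD1 mice, pooled for each experiment, were dissociated and sorted by surface CD49f, which is integrin α6 (ITGA6). The 4 groups were EL (E15.5, ErbB-2+/CD49flow), EH (E15.5, ErbB-2+/CD49fhigh), PL (P2, CD49flow) and PH (P2, CD49fhigh), with 4 microarrays each. The P2 cells had been depleted of non-myocytes before sorting and were not gated on ErbB-2, so that the stages also differ in how the cells were purified. The sample numbers are 2, 3, 6 and 8 for both E15.5 groups and 2 to 5 for both P2 groups, and values are listed in that order. A probe is said to be measured throughout a group if it was well above background, as marked by the scanner software, in all 4 samples.

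Voltage-gated sodium channels carry the inward current that starts the action potential of atrial and ventricular cardiomyocytes. A pore-forming α subunit is joined by single-pass β subunits, which act on gating and on cell adhesion. The intracellular fibroblast growth factors lack a signal for secretion, stay in the cell and bind the C-terminal tail of the α subunit, where they change the inactivation of the channel.

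Fgf12 was higher in the CD49fhigh cells at both stages. Fgf14 was measured throughout PH and Scn4b throughout PL, and neither was measured throughout any other group. Scn3b and Fgf13 were measured in every sample without a difference that passed the thresholds, and Scn4a and Fgf11 stayed near background. Of the 12 probes, 9 were measured throughout at least 1 group, 3 of them in all 16 samples, and 1 was not well above background in any. These 9 include probes that passed because of the group in which they are high.

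Where a gene has several probes, the position of the probe decides which transcripts are seen, so the probes that bear on this are shown as the scanner files give them, 5′ to 3′. The first covers 60 bases of Fgf12 RNA that lie over 183340 bases of chromosome 16 and therefore crosses at least 1 splice junction. The second lies 187599 bases from the other Fgf13 probe, the third is the Fgf14 probe without signal, and the last is the Fgf11 probe.
Fgf12 A_52_P193161: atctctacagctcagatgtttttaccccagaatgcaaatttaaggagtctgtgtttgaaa
Fgf13 A_55_P2139814: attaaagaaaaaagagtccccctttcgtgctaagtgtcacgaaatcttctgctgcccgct
Fgf14 A_55_P2019998: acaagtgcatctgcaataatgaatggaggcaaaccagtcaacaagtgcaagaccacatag
Fgf11 A_51_P517706: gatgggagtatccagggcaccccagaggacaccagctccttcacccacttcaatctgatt

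The signal intensities below are quantile-normalized processed signals on a linear scale, which can be compared between groups for the same probe and not between probes. A difference was called if its Benjamini-Hochberg adjusted p over all probes (limma) was at most 0.05 and its size at least 3-fold. Where no microarray of the dimmer group was well above background and the brighter was measured throughout, the fold is given as a lower limit. That limit divides the mean of the brighter group by a stand-in for the dimmer one, in which each signal is raised, where needed, to the lowest signal that its microarray had well above background. The samples of a group came, by the study's methods, from 4 independent sorting experiments, so the p-values measure the spread between experiments on pooled hearts.

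The sorted cells were checked against marker genes. All 5 cardiomyocyte markers were measured throughout every group. Tnnt2, which encodes cardiac troponin T, had mean signals of 104700 and 122400 at E15.5 (EL and EH) and of 155900 and 143400 at P2 (PL and PH). Myh6, the gene of the α myosin heavy chain, was called higher in EH than in EL (log2 fold-change 1.84, adjusted p = 1.18e-07). All 5 atrial markers (Myl7, Nppa, Sln, Nr2f2 and Gja5) were called higher in EH than in EL and in PH than in PL. Of 4 ventricular markers, Irx4, Hey2 and Myh7 were called lower in EH and all, Myl2 included, in PH. Irx4, a ventricular transcription factor, had a log2 fold-change of -2.31 at E15.5 and -5.57 at P2. Of 7 conduction and pacemaker markers, Hcn4, Isl1 and Cntn2 were not well above background in any sample. Cacna2d2, a calcium channel subunit gene, was called higher in the CD49fhigh cells at E15.5 and P2 (log2 fold-changes 2.70 and 3.28). Shox2 was called higher in EH than in EL, with 1 EH sample well above background. Among the E15.5 microarrays, sample 2 of EH stood apart, with 46.5% of probes well above background against 38.9 to 42.8% on the others.

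Fgf12 showed the largest differences of the 8 genes. At E15.5, the probe A_51_P126337 (chr16:28160281-28160340, mm9, minus strand) had signals of 12.7, 6.67, 5.03 and 8.55 in EL, against 1140, 1125, 1002 and 971 in EH. None of the EL signals was well above background, all EH signals were, and the groups did not overlap. EH was at least 70.7-fold higher than EL (adjusted p = 9.05e-07, limma). At P2 the same probe gave 16.7, 60.6, 112 and 19.2 in PL, where samples 3 and 4 were well above background, and 3942, 3596, 4753 and 4163 in PH. PH exceeded PL by 6.74 ± 0.49 on the log2 scale (SE, n = 4 each, adjusted p = 4.95e-07). Because samples 2 and 5 of PL were not well above background, the size depends on how dim signals are treated, and it was 6.67 with signals floored at the lowest signal well above background and 5.28 with normexp background correction. The means were 8.25 ± 3.33 in EL, 1059 ± 85.3 in EH, 52.1 ± 44.7 in PL and 4113 ± 486 among PH samples (SD, n = 4).

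The junction-spanning probe of Fgf12, A_52_P193161 (chr16:28189673-28373012, mm9, minus strand), gave the same picture from another piece of the transcript. Its signals were 13.7, 3.29, 4.33 and 3.17 in EL, none well above background, and 625, 590, 506 and 670 in EH. EH was at least 39.1-fold higher (adjusted p = 2.98e-06). The PL signals were 10.1, 22.2, 53.2 and 7.11 and the PH signals 2084, 2057, 2446 and 1833. Samples 2 and 5 of PL were again not well above background. The fitted difference of 6.94 ± 0.56 on the log2 scale (SE, adjusted p = 1.21e-06) was 6.35 with floored signals and 4.83 with normexp. Over the 16 microarrays the log2 signals of both probes correlated with r = 0.994, which is a description of samples that differ mainly by fraction.

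Both E15.5 slides held samples of both fractions. The E15.5 difference of the probe A_51_P126337 was 6.69 within the slide that held 5 of the microarrays, 7.43 within the slide that held 3, and 6.95 with the slide as a block, each on the log2 scale. The slide with 3 microarrays held 1 sample of EH, whose spread is assumed to be that of the other groups, so its value has no replicate check in that fraction. Both probes also stayed called between the fractions whichever of the 16 microarrays was left out, with log2 values for A_51_P126337 of 6.88 to 7.32 at E15.5 and 6.34 to 7.25 at P2. Since no EL signal was well above background, the E15.5 difference is known only as a lower limit, and its change from E15.5 to P2 has no exact size. The fit of that change gave -0.35 ± 0.69 for A_51_P126337 and 0.04 ± 0.79 for A_52_P193161 on the log2 scale (SE, adjusted p = 0.890 and 0.993, not called), which does not show that the difference was the same at both stages. With the normexp background correction these changes were 1.26 and 1.41, with adjusted p of 0.00683 and 0.000364 and a size below 3-fold.

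**Figure D1:**
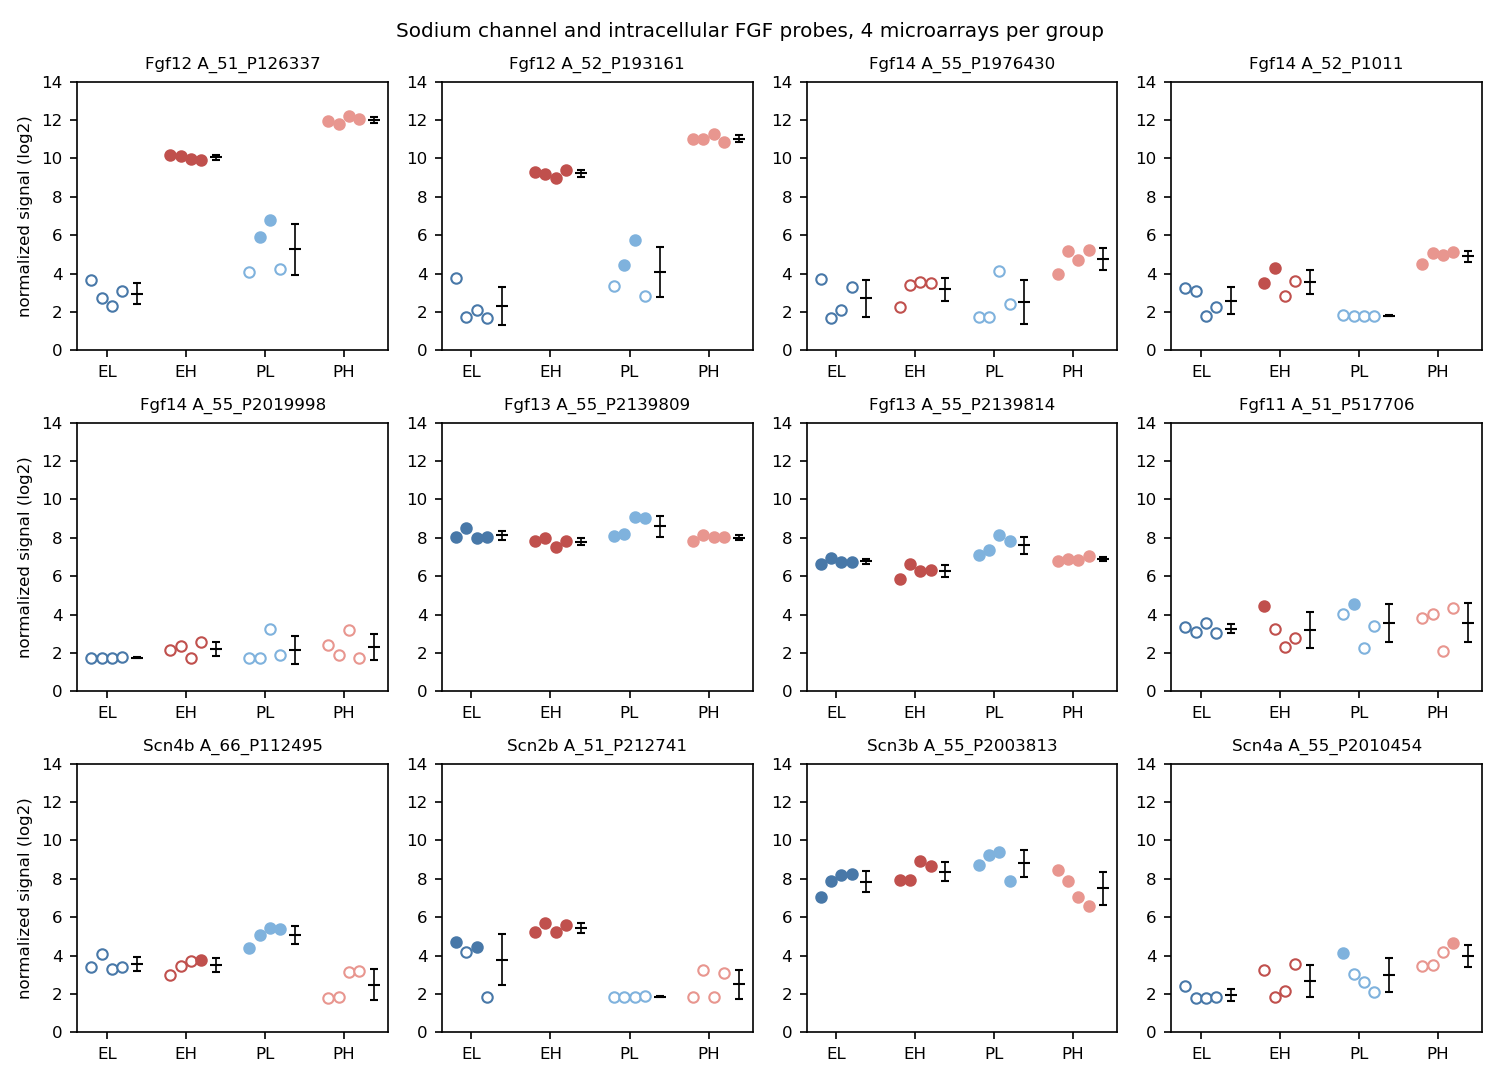
Normalized signal of each of the 12 probes (vertical axis, log2) by group (horizontal axis). Points are the 4 microarrays of a group, filled where the probe was well above background and open where it was not, and the bar beside them is the mean ± SD of the log2 signals. Fgf12 is above 9 in most EH and all PH samples and below 7 in all EL and PL samples.

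Fgf12 also rose with stage within each fraction. In the CD49fhigh cells, A_51_P126337 was 1.95 ± 0.49 higher in PH than in EH on the log2 scale (SE, adjusted p = 0.0124) and A_52_P193161 1.82 ± 0.56 higher (adjusted p = 0.0371), with no overlap between the groups. In the CD49flow cells, with EL signals raised as for a lower limit, the step from EL to PL came to 2.57-fold for the first probe (adjusted p = 0.00363). It came to 1.12-fold for the second (adjusted p = 0.0376), whose groups overlapped. Samples 2 and 5 of PL were not well above background with either probe, so neither value is a firm lower limit. Both steps in the CD49flow cells fell below 3-fold with floored signals (log2 values 1.43 and 0.76) and with normexp (0.64 and 0.32). The call of A_52_P193161 in PH against EH was lost without any 1 of the 8 samples compared (adjusted p of at most 0.0893). That in PL against EL was lost without sample 3, 6 or 8 of EL or sample 3 or 4 of PL (adjusted p of at most 0.109), and narrowly without sample 2 or 3 of EH. All P2 microarrays lay on a slide of their own, so that stage and slide cannot be told apart.

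Within PL the Fgf12 signal was not even, and it was well above background in the samples with the highest signals of atrial genes, 3 and 4. Sln, which encodes sarcolipin, a regulator of the sarcoplasmic calcium pump, had signals of 704, 3098, 6837 and 1123 in PL. Myl7, which encodes the atrial myosin light chain MLC-2a, had 1484, 4897, 10760 and 2088. Sample 4 was highest, then sample 3, sample 5 and sample 2, for Sln, Myl7, Nppa, Gja5 and Fgf12 A_51_P126337. Nr2f2, the remaining atrial marker, and Fgf12 A_52_P193161 had samples 5 and 2 in the other order. The highest PL sample exceeded the lowest 9.72-fold for Sln, 7.25-fold for Myl7 and 3.60-fold for Nppa, whereas for Fgf12 no such fold is given, since samples 2 and 5 were not well above background. In EL, where Fgf12 was not well above background, A_52_P193161, Myl7 and Nr2f2 had samples 2, 6, 3 and 8 from high to low, and A_51_P126337, Sln, Nppa and Gja5 each had another order. In such RNA of many cells, fewer cells of a type and less RNA per cell cannot be told apart.

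**Figure D2:**
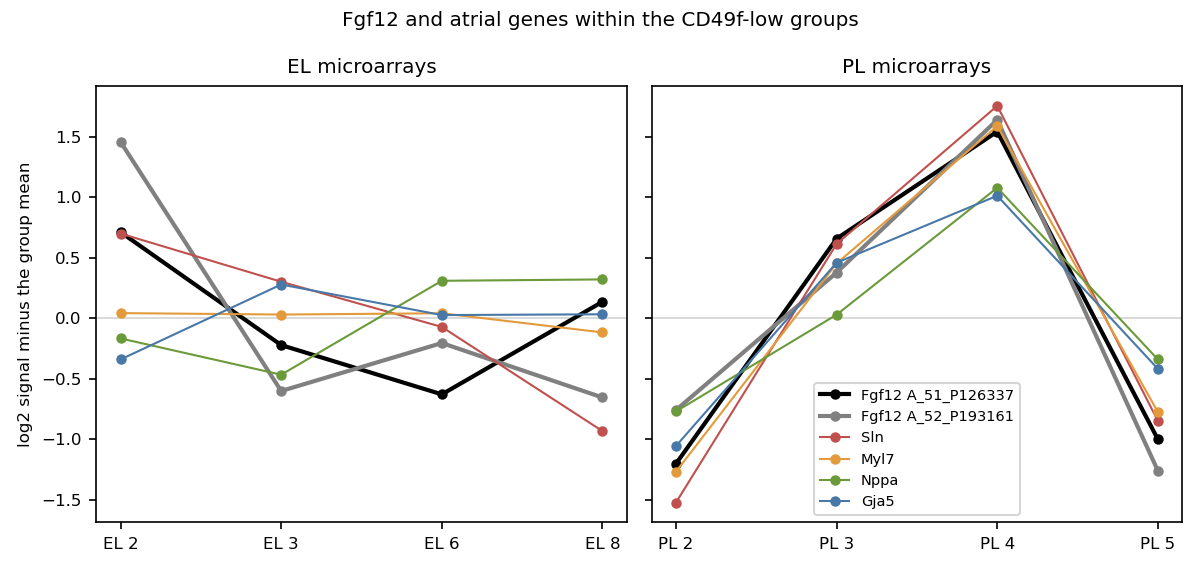
Log2 signal of both Fgf12 probes and 4 atrial genes on each EL and PL microarray, as the difference from the group's mean (vertical axis). The atrial marker Nr2f2 is not drawn. In PL all 6 lines peak at sample 4 and lie below the mean at samples 2 and 5, and in EL, where no Fgf12 signal was well above background, sample 2 is highest for both Fgf12 probes, Sln and Myl7 but not for Nppa and Gja5.

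Fgf14, best known as a partner of sodium channels in neurons, was low in every group. The probe A_52_P1011 (chr14:124377957-124378016, mm9, minus strand) had signals of 22.3, 33.4, 31.0 and 34.8 in PH, all well above background. In PL it gave 3.56, 3.51, 3.51 and 3.50, none of them well above background, and PH was at least 1.55-fold higher (adjusted p = 1.76e-05). At E15.5 it gave 9.64, 8.44, 3.43 and 4.73 in EL and 11.5, 19.7, 7.09 and 12.3 in EH, where samples 2 and 3 were well above background. The E15.5 fractions overlapped and the difference of 0.98 ± 0.33 on the log2 scale (SE) was not called (adjusted p = 0.101). With the sample number as a block the adjusted p was 0.0224, and the size stayed below 3-fold. No EL sample was well above background, and with floored signals the difference was -0.09 (adjusted p = 0.731). PH exceeded EH by 1.34 ± 0.33 on the log2 scale (SE, adjusted p = 0.0109, limma), without overlap and below 3-fold. The difference between the stages in the fraction effect was called for this probe, at 2.11 ± 0.47 on the log2 scale (SE, adjusted p = 0.0235). That size rests on EL and PL signals that were not well above background. This difference between the stages was not called with 75th percentile scaling (1.71, adjusted p = 0.0750), nor without sample 3 of EL, 3 of PH or 5 of PH (adjusted p = 0.0544, 0.0514 and 0.0518).

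The neighbouring Fgf14 probe A_55_P1976430 (chr14:124379079-124379138) gave 15.96, 35.8, 26.1 and 37.8 in PH, all well above background, and no signal well above background in EL, EH or PL. PH was at least 1.42-fold higher than PL (adjusted p = 0.0181), although sample 4 of PL, at 17.6, overlapped with PH. This call was lost without sample 2 or 3 of PL or sample 3 or 5 of PH, with adjusted p of 0.0546 to 0.0600. It was also lost with the sample number as a replicate block (adjusted p = 0.0555). The third probe, A_55_P2019998, lies 489 bases from A_55_P1976430 and was not well above background on any of the 16 microarrays. Its signals reached at most 9.44, and the P2 difference of 0.17 ± 0.35 on the log2 scale (SE) was not called (adjusted p = 0.956). The Fgf14 probes thus disagreed, with 2 of 3 called in PH against PL, and both calls were lost when dim signals were floored or the background was corrected by normexp.

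Markers of nerve and Schwann cells were set beside these values. Of 10 such genes, 1 was called higher in PH than in PL, Elavl4, a gene of an RNA-binding protein of neurons, with a mean of 60.4 in PH, all samples well above background, and none well above it in PL, which makes PH at least 3.11-fold higher (adjusted p = 2.03e-06). Sox10 and Stmn2 were not well above background on any of the 16 microarrays. The summed signal of the 10 genes was 230 to 296 in PL and 291 to 330 in PH. The part of such cells in the Fgf14 result was not tested.

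Fgf13, known as a main member of the family in the mouse ventricle, was well above background in all 16 samples with both probes. The signals of A_55_P2139809 (chrX:56316415-56316474, mm9) were 268, 358, 251 and 263 in EL and 225, 258, 186 and 228 in EH. At P2 they were 270, 293, 547 and 529 in PL, where samples 4 and 5 lay above the others, and 226, 287, 265 and 259 in PH. The groups overlapped at both stages, and neither fraction difference was called (log2 fold-changes -0.34 ± 0.22 and -0.59 ± 0.22, SE, adjusted p = 0.495 at E15.5 and 0.115 at P2). With the other probe, A_55_P2139814 (chrX:56504014-56504073), the fractions did not overlap at either stage. EL samples had 100.8, 122, 106 and 108, EH samples 58.2, 98.9, 77.2 and 81.2, PL samples 136, 165, 279 and 224, and PH samples 110, 119, 116 and 134. CD49fhigh cells had the lower level, by -0.49 ± 0.20 at E15.5 (adjusted p = 0.194) and -0.70 ± 0.20 at P2 (SE, adjusted p = 0.0362) on the log2 scale. The P2 difference passed the limit of p but at 1.62-fold stayed under the limit of 3-fold. From high to low, the group means were in the order PL, PH, EL and EH for this probe, with PH and EL overlapping, and PL, EL, PH and EH for A_55_P2139809, where each neighbouring pair overlapped. With A_55_P2139814, PL exceeded EL by 0.83 ± 0.20 (adjusted p = 0.00845) and PH exceeded EH by 0.62 ± 0.20 (SE, adjusted p = 0.0475, limma) on the log2 scale. Neither pair overlapped, and both sizes stayed under 3-fold. With A_55_P2139809 these values were 0.47 and 0.21 (adjusted p = 0.182 and 0.613). Stage and slide cannot be told apart here.

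Fgf11 was measured by A_51_P517706 (chr11:69612941-69613210, mm9, a span of 270 bases for 60 bases of probe). Its signals lay between 4.26 and 23.8 over all samples, and it was well above background on 1 microarray of EH and 1 of PL. All groups overlapped, and no comparison was called.

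Scn4b encodes the β4 subunit. Its probe A_66_P112495 (chr9:44962045-44962104, mm9, plus strand) had signals of 21.4, 33.9, 42.8 and 41.9 in PL, all well above background, and of 3.49, 3.54, 8.88 and 9.13 in PH, none of them well above background. The groups did not overlap, and PL was at least 2.11-fold higher than PH (adjusted p = 0.000166). At E15.5 the signals were 10.5, 16.9, 9.93 and 10.69 in EL and 7.92, 11.2, 13.2 and 13.7 in EH, with 1 of these 8 well above background, and the fractions overlapped (adjusted p = 0.980). The fraction effect differed between the stages by -2.52 ± 0.50 on the log2 scale (SE, adjusted p = 0.0125). That size rests on dim signals in EL, EH and PH, of which only 1, sample 8 of EH, was well above background. From EL to PL the level was at least 2.26-fold higher (adjusted p = 0.00628), with no overlap, which did not reach the 3-fold limit in the fit. It was called without sample 3 of EL or sample 2 of PL (log2 fold-changes 1.70 and 1.75). The call in PH against PL and that of the difference between the stages were lost with floored signals, at log2 values of -1.08 and -0.78 (adjusted p = 0.00364 and 0.377), and with normexp, at -0.61 and -0.57.

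Scn2b, the gene of the β2 subunit, was measured throughout EH and no other group. The probe A_51_P212741 (chr9:44937945-44938004, mm9, plus strand) gave 37.5, 52.7, 37.4 and 49.0 in EH, all well above background. In EL it gave 26.1, 17.9, 22.0 and 3.56, with samples 2 and 6 well above background and sample 8 far below the others. No P2 signal was well above background, at 3.63, 3.60, 3.64 and 3.75 in PL and 3.58, 9.35, 3.65 and 8.54 in PH. EH was at least 2.72-fold higher than PH (adjusted p = 0.00107). EL against PL was called as well (adjusted p = 0.0172), but the lowest EL sample overlapped with PL, and against the lowest signals well above background no lower limit above 1 could be set, and with floored signals the PL against EL value was -0.05 (adjusted p = 0.828). That call was lost without sample 2, 3 or 6 of EL, with adjusted p of 0.0520 to 0.0599. EH lay above EL in every sample, by 1.66 ± 0.52 on the log2 scale (SE), without passing the test (adjusted p = 0.0747). Of 26 alternatives, 2 called this difference, namely detected probes alone (adjusted p = 0.0278) and the methods' test (0.0448). The probe counts as detected only through EH, the group in which it is high, so the first of these gives no separate support. With the sample number as a block the adjusted p of this difference was 0.124. Leaving out 1 microarray gave log2 values of 1.005 to 1.963, none of them called.

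Genes of other cell types also fell from E15.5 to P2. Of 5 fibroblast markers, among them Col1a1, 5 were called lower in PH than in EH and 4 lower in PL than in EL. Their summed signal was 2740 to 5885 in EH and 309 to 443 in PH. Postn was also called lower in PH than in PL. The summed signal of 3 erythroid markers, to which the Hba-a1 probe gave the largest part, was 2024 to 19990 at E15.5 and 154 to 620 at P2. Endothelial Cdh5 and Tie1 were called higher in EH than in EL. Cdh5 gave 77.3, 46.0, 391 and 333 in EH and was not well above background in EL, PL or PH, and Tie1 gave 69.2, 41.3, 274 and 220 in EH and was likewise not well above background in the other groups. The Kdr probe gave the largest part of the summed signal of all 5 endothelial markers. That sum ranged from 1020 to 1171 in EL, 754 to 1764 in EH, 320 to 1542 in PL, and 456 to 1043 for PH samples. Leukocyte Cd68 was higher in EH than in EL as well (log2 fold-change 1.74, adjusted p = 0.00481). The sum of 3 leukocyte markers was highest in sample 6 of EH, at 6493, of which the Csf1r probe gave 5508. The samples of EH with the most Cdh5, 6 and 8, had Scn2b signals of 37.4 and 49.0, and Fgf12 A_51_P126337 signals of 1002 and 971. The part of such cells in the Scn2b result was not tested. At P2, where Fgf12 was called higher in PH than in PL, neither Cdh5 nor Tie1 was well above background in either fraction. The part of such cells in the E15.5 difference of Fgf12 was not tested.

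Scn3b, the gene of the β3 subunit, was well above background in all 16 samples with A_55_P2003813 (chr9:40098873-40098932, mm9, plus strand). EL samples had 134, 236, 295 and 303 and EH samples 248, 245, 480 and 408. PL samples had 419, 594, 680 and 232 and PH samples 357, 235, 130 and 97.2. All groups overlapped with each other. The spread within PH and within PL was large, and PH was lower than PL by -1.30 ± 0.45 on the log2 scale (SE) without passing the test (adjusted p = 0.0850). With the sample number as a replicate block the adjusted p was 0.034, and the size stayed below 3-fold. This difference was called without sample 5 of PL (adjusted p = 0.0320) or without sample 2 of PH (adjusted p = 0.0276).

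Scn4a, the α subunit gene of skeletal muscle, was near background. The probe A_55_P2010454 (chr11:106180635-106180694, mm9, minus strand) reached at most 5.43 and 11.6 at E15.5 (EL and EH) and 17.9 and 25.4 at P2 (PL and PH). It was well above background on 1 microarray of PL and 1 of PH, and no comparison was called. Of 7 skeletal muscle markers, 5, including Myod1, Myf5 and Pax7, were not well above background on any microarray, whereas Myh8 was well above it in every sample. None of the 7 was called between the fractions. Myog, the gene of the muscle regulator myogenin, was well above background in 4 EH and 2 PH samples and in none of EL or PL. Its mean signals were 14.6 in EL and 34.6 in EH (adjusted p = 0.0405, limma). At P2 the PL mean was 6.02 and that of PH 16.03 (adjusted p = 0.00882), and both fitted differences were below the limit of 3-fold. Its part in the values of Scn4a was not tested.

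Counted over all 12 probes, 2 were called higher in EH than in EL, both of Fgf12, and 0 lower, where 1.17% and 0.454% of all 55681 probes were. In PH against PL, 4 probes were called higher, those of Fgf12 and 2 of Fgf14, and 1 lower, that of Scn4b, against 1.73% and 0.916% of all probes. In PL against EL, 2 were higher, both of Fgf12, and 1 lower, that of Scn2b, against 1.60% and 2.15%, and in PH against EH again 2 were higher and 1 lower, with the same genes, against 1.30% and 2.10%. For the difference between the stages in the fraction effect, 1 probe was called in each direction, against 0.602% higher and 0.602% lower. The median log2 fold-change of the 12 probes was 0.50 in EH against EL and 0.40 in PH against PL, beside -0.025 and -0.005 for all probes.

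**Figure D3:**
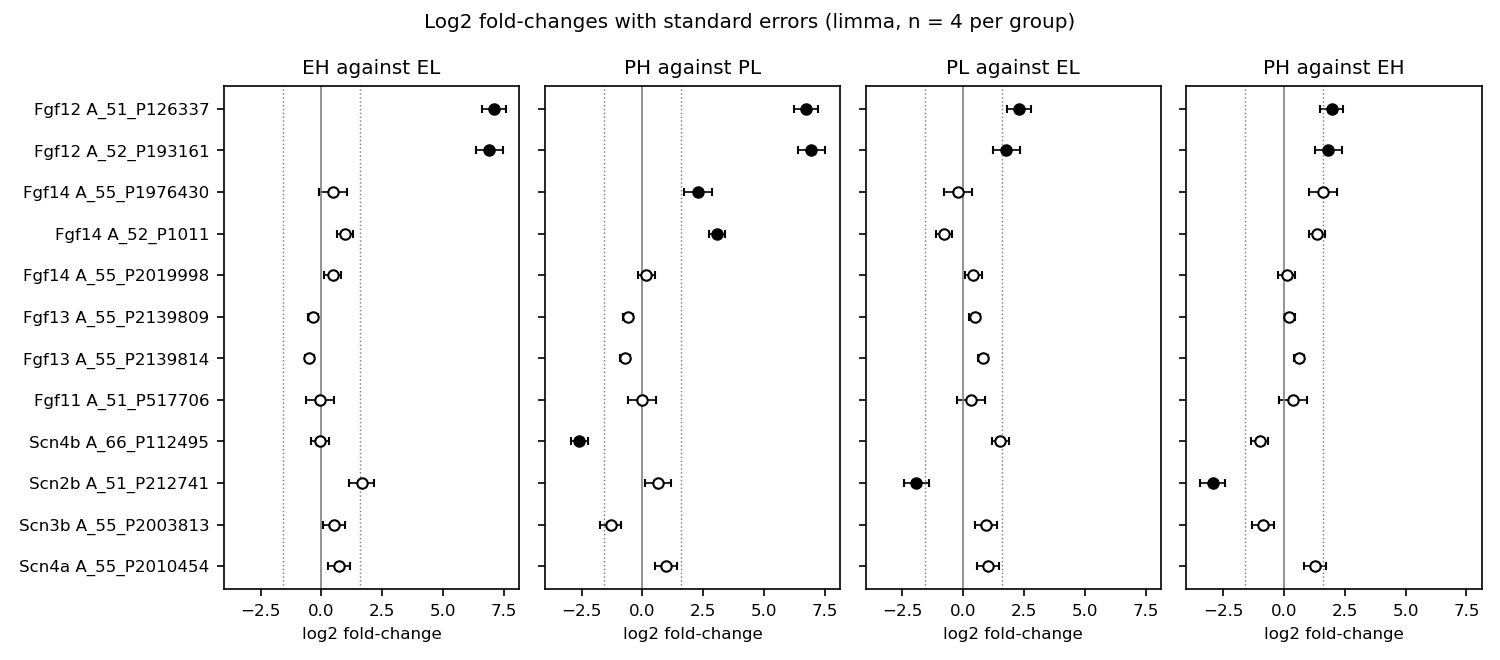
Log2 fold-change of each probe (horizontal axis) with its standard error from limma in 4 comparisons, filled where called and open where not, with dotted lines at 3-fold. The 2 Fgf12 probes lie near 7 in EH against EL and PH against PL, and 2 of the 3 Fgf14 probes and the Scn4b probe lie outside the dotted lines in PH against PL. Folds of probes at background in a group are values of the fit and not limits.

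The calls outside Fgf12 rested on dim signals. When signals were floored at the lowest signal well above background, or when the background was corrected by normexp with an offset of 50, the calls of Fgf12 between the fractions and between PH and EH remained, at log2 values of 3.42 to 6.67 between the fractions and 1.73 to 1.95 between PH and EH. Those of Fgf14, Scn4b and Scn2b and of Fgf12 in PL against EL were lost in both settings.

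**Figure D4:**
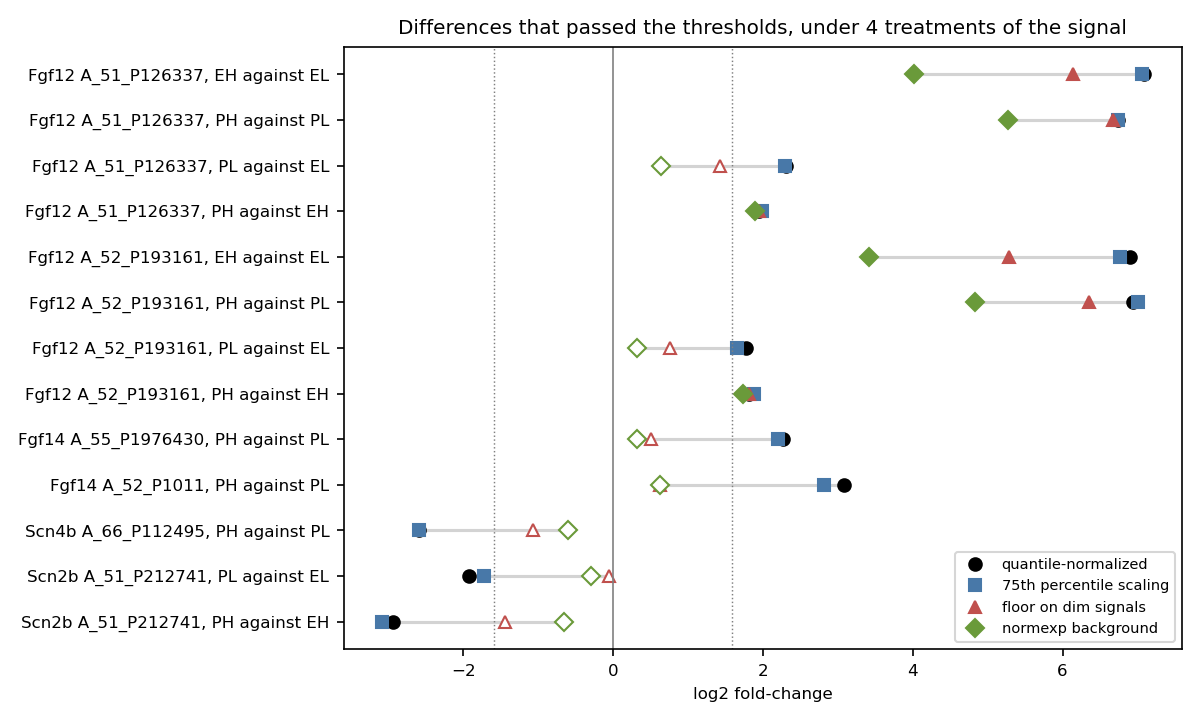
Log2 fold-change (horizontal axis) of the 13 differences called between 2 groups, under quantile normalization, 75th percentile scaling, a floor on dim signals and normexp background correction. Filled points passed both thresholds and open points did not, and dotted lines mark 3-fold. The Fgf12 fraction differences stay above 3 in all 4, and those of Fgf14, Scn4b and Scn2b move inside the dotted lines in 2.

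Other genes of the same system were counted by their brightest probe. Of 19 genes of proteins that anchor, bind or modify the sodium channel, 18 were measured throughout at least 1 group, and 0 were called in either direction between the fractions at E15.5 or at P2. Among all probes, 1.17% were called higher and 0.454% lower at E15.5 and 1.73% and 0.916% at P2, so that a count of 0 among 19 is near the background. Their median log2 fold-changes were -0.09 and -0.06. Of 11 other sodium channel subunit genes, 3 were measured throughout a group, and 1 was called higher and 0 lower in both fraction comparisons, with medians of 0.34 and 0.10.

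Among 18 genes of the other fibroblast growth factors, which act outside the cell, 7 were measured throughout a group. Fgf7, the gene of keratinocyte growth factor, was called higher in the CD49fhigh cells at both stages. Its mean signal was 20.5 in EL against 209 in EH (log2 fold-change 3.33, adjusted p = 7.03e-05), and 11.1 in PL, with no sample well above background, and 347 in PH (adjusted p = 6.67e-07). Fgf9 was called lower, with a mean signal of 340 in EL against 82.4 in EH (log2 fold-change -2.05, adjusted p = 4.39e-05), and of 724 in PL against 47.6 in PH (-3.93, adjusted p = 4.87e-08). The other 16 genes of this group were not called between the fractions by their brightest probe.

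The genes most like each of the 6 members measured throughout at least 1 group, which leaves out Scn4a and Fgf11, were sought among 14070 gene names by the Pearson correlation of log2 signals over the 16 samples, which share their groups. Fgf12 was most like Mybphl (r = 0.994), a gene of a myosin-binding protein of atrial muscle, Sln (r = 0.993) and Stard10 (r = 0.990). Scn4b was most like Impa2 (r = 0.897), Iba57 (r = 0.896) and Hsd17b10 (r = 0.894). Scn3b was most like Gm5215 (r = 0.970), St6galnac1 (r = 0.961) and Tdgf1 (r = 0.946), and Scn2b like Rims3 (r = 0.930), Ltb (r = 0.922) and Gpr132 (r = 0.918). Fgf13 was most like NAP113695-1 (r = 0.924), Rsad1 (r = 0.896) and Metrn (r = 0.894). For Fgf14 the nearest gene names were AK037200 (r = 0.863), LOC101055828 (r = 0.860) and Gm5640 (r = 0.858). The brightest probes of Fgf14, Scn4b and Scn2b were each measured throughout only 1 group. Their correlations therefore rest mostly on signals that were not well above background.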

How the data were processed

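Cy3-labelled cRNA of 16 samples was hybridised to single-colour Agilent microarrays with mm9 probe positions. For each microarray the authors deposited the output of the software Feature Extraction (version 10.7.3.1), with signal intensity values per spot, in which the processed signal is background-subtracted and the dimmest spots carry surrogate values. They also deposited a table of quantile-normalized log2 values per probe, which was used as an alternative. No spot was saturated. Outlier spots were left out, the others were averaged per probe, quantile normalization was applied over the 55681 probes, and log2 was taken. A probe was taken as well above background where the software marked at least 50% of its spots so. Group means over all 16 microarrays were fitted with limma 3.58.1 in R 4.3.3, and the procedure was tested on simulated data. The number of microarrays limits the precision, and depth has no counterpart here. Alternatives were 75th percentile scaling, normexp, the deposited log2 values, detected probes only (22250), a floor, the slide or sample number as a block, the methods' test (analysis of variance with Tukey's test and 3-fold) and leaving out each microarray. Those within single slides were added after seeing the data.

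EL and EH of the same number deviated together from their group means (r = 0.255, 0.189, 0.450 and 0.379, the limit being 0.1), so the numbers were taken to pair these samples. The main fit did not use this pairing. The sample number as a block changed no call at E15.5.

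The members and gene lists were chosen with earlier results of these data known. Every member probe is named. From the other lists, genes were named where their brightest probe was called between the fractions. Also named were called or defining markers and, in most marker lists, the gene whose probe had the highest signal. For the other sodium channel subunits only counts are given, and single genes of that list, and some marker genes, are not reported here. Of the 12 probes, 10 matched RefSeq by accession, all under the same symbol. Tables and plots came from Python 3.11.15, with pandas 2.3.3 for the tables.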

Additional observations from a re-analysis of the deposited data

Results flagged for a closer look

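The fraction effect differed between the stages for Scn4b A_66_P112495 by -2.52 and for Fgf14 A_52_P1011 by 2.11 on the log2 scale, both by the test of the difference itself. In 5 of 48 sets of 4 log2 signals, 1 sample lay far from the other three by Dixon's ratio at its 95% limit, where chance gives about 1 in 20. In none of these 5 sets was any sample well above background. These were Scn4b A_66_P112495 in EL, where sample 3 had 16.9 and the others 9.93 to 10.69 (ratio 0.862), and Scn4a in EL, where sample 2 had 5.43 and the others 3.41 to 3.57 (0.903). The other sets were of Fgf14. They were A_55_P1976430 in EH, where sample 2 had 4.85 and the others 10.5 to 11.9 (0.857), A_52_P1011 in PL, where sample 2 had 3.56 and the others 3.50 to 3.51 (0.861), and A_55_P2019998 in PL, where sample 4 had 9.44 and the others 3.36 to 3.74 (0.895). Their causes were not tested.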

How the results depend on the processing

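Of 15 called differences, 5 stayed called under every alternative run, and none of the 15 changed sign, whereas 20 of the 45 that were not called changed sign in at least 1 setting. With normexp the number of called probes fell from 5 to 2 in PH against PL, from 3 to 0 in PL against EL and from 2 to 0 for the difference between the stages, and with floored signals to the same 2, 0 and 0. With 75th percentile scaling, under which the median log2 fold-change of all probes was -0.18 in EH against EL, -0.14 in PH against PL and 0.19 in both stage comparisons, against -0.02, -0.01, 0.01 and 0.03 with quantile normalization, 1 probe was called for the difference between the stages. Leaving out 1 microarray gave 2 to 2 called probes in EH against EL, 4 to 6 in PH against PL, 1 to 4 in PL against EL, 2 to 4 in PH against EH and 1 to 2 for the difference between the stages. In PL against EL, 1 probe was left without sample 6 of EL, and for the difference between the stages 1 was left without sample 3 of EL or samples 3 or 5 of PH. Fgf12 A_52_P193161 lost its call in PH against EH without any 1 of the 8 samples compared, with adjusted p of at most 0.0893. For the P2 sample numbers 2 to 5 the deviations of PL and PH correlated with r = 0.375, 0.176, -0.0305 and 0.542. Sample 4 missed the limit of 0.1, so the P2 numbers were not taken as pairs, although they may be. With the sample number as a replicate block, 4 probes were called in PH against PL, since Fgf14 A_55_P1976430 had an adjusted p of 0.0555, and the block changed no other call. Signal near background limits all values of Fgf14, Fgf11, Scn4a, Scn4b and Scn2b. The causes of these changes were not tested.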
